A study of Mus musculus with 21 samples.

Results

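Nuclear factor kB (NF-kB) is a family of dimeric transcription factors held inactive in the cytoplasm by inhibitor proteins. The genes described here are 10 of its subunits and inhibitors: the subunit genes Nfkb1, Nfkb2, Rel, Rela and Relb, the inhibitor genes Nfkbia, Nfkbid and Nfkbie, the ubiquitin-editing regulator Tnfaip3 and the nuclear cofactor Bcl3. They were found on the array through the RefSeq accession of each probe, and all 10 of 10 were present, with 12 probes, among 20018 named genes. Nfkb1 and Relb had 2 probes each, and the brighter probe over the 21 arrays was used for every gene.

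The study asked how the transcriptional repressors Bach1 and Bach2 affect the choice between B-lymphoid and myeloid fates in the mouse, with 7 groups of 3 single-colour Agilent arrays in 3 experiments. Common lymphoid progenitors (CLPs), early lymphocyte precursors sorted from bone marrow after partial bead depletion of lineage-positive cells and pooled from mice, were wild type (WT) or deficient in both Bach1 and Bach2 (DD). Multipotent progenitors (MPPs; Lin-, c-kit+, Sca-1+, Flt3mid), pooled from 4 WT mice per experiment and kept overnight with the cytokines SCF at 50, IL-3 at 5 and IL-6 at 10 ng/ml, received a retrovirus with GFP alone (control vector, MSCV) or with Bach2 and GFP. The multilineage culture then lasted 2 days, and GFP+ cells were taken by sorting. A further group with the Bach2 vector spent 24 h in multilineage and 6 days in B-lineage culture and was sorted as GFP+ B220+ cells, with no control-vector counterpart under that culture here. Follicular B cells, the main recirculating B cells, were WT or Bach2KO and were all held for 24 h with 10 ug/ml of an anti-IgM antibody fragment that engages the B-cell receptor. There was no unstimulated follicular group, and the labels give no sort gate for these cells and no age or sex of the mice. Their label speaks of a single RNA sample being amplified, so p-values for them may measure technical spread alone. Arrays with the same replicate number in the CLP, vector and follicular experiments deviated together.

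The share of probes well above background was 66.8 to 81.5% on CLP arrays, 62.6 to 81.4% on MPP arrays and 50.9 to 58.8% on follicular B-cell arrays, whose 75th-percentile signals were 97.3 to 357.5 against at least 2071 elsewhere. The brighter of 2 Bach2 probes ranged from 3.06 to 3.55 in WT and from -1.01 to -0.07 in Bach2KO follicular B cells, and from 1.49 to 3.46 in WT and -0.27 to 1.17 in DD CLPs (log2 signal relative to the 75th percentile of the same array, the scale of all levels below). The Bach1 probe overlapped between WT (1.87 to 2.17) and DD CLPs (0.88 to 2.41). Where these probes lie relative to the deleted parts was not stated in the labels. The dimmer Bach2 probe was well above background on all 3 Bach2-vector arrays, all 3 B220+ arrays and 1 of 3 control-vector arrays. The brighter one overlapped between Bach2-vector (-2.57 to -0.92) and control-vector MPPs (-3.87 to -2.15). In the B220+ cells it was -4.10 to -2.49, which also overlapped with control-vector MPPs. B-lineage markers fixed as a list were well above background on all 3 arrays for 15 of 16 genes in WT CLPs and 13 of 16 in WT follicular B cells. In the B220+ cells this held for 12 of 16, but the B-lineage list mean was only -3.17 to -2.21, against 0.10 to 0.47 in WT CLPs, the B-cell marker Ms4a1 was well above background on 0 of 3 arrays, and the granulocyte list mean was 2.86 to 3.20. These cells are therefore called here by their sort gate.

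In the canonical branch of the pathway, receptors act through a kinase complex that marks the inhibitor encoded by Nfkbia for destruction, which frees dimers of the Rela, Rel and Nfkb1 products to enter the nucleus. The alternative branch processes the Nfkb2 product and frees its dimers with the Relb product. Nfkbia, Nfkbie, Tnfaip3, Nfkb2 and Relb are textbook NF-kB targets and form feedback loops. Nfkbid and Bcl3 encode nuclear members of the inhibitor family, which act on DNA-bound dimers. In B cells the pathway is known as a response to the B-cell receptor, to CD40 and to the cytokine BAFF.

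Across the 7 groups, the follicular B cells had the highest means for most members. The mean was highest in WT follicular B cells for 8 of 10 members, all but Nfkb1 and Rel. Both follicular groups had means above all 5 progenitor-derived groups for 7 of 10 members, the exceptions being Nfkb1, Rel and Bcl3. With quantile normalization these counts were 7 and 7, and with another background correction 9 and 6. The shares of all genes with such orders are not given here, so the counts are no result about the members. Nfkb1 was read on its brighter probe alone, and Rel had a low array in each follicular group, both described further on. Rel was well above background on 19 of 21 arrays and every other member on 21 of 21.

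**Figure D1:**
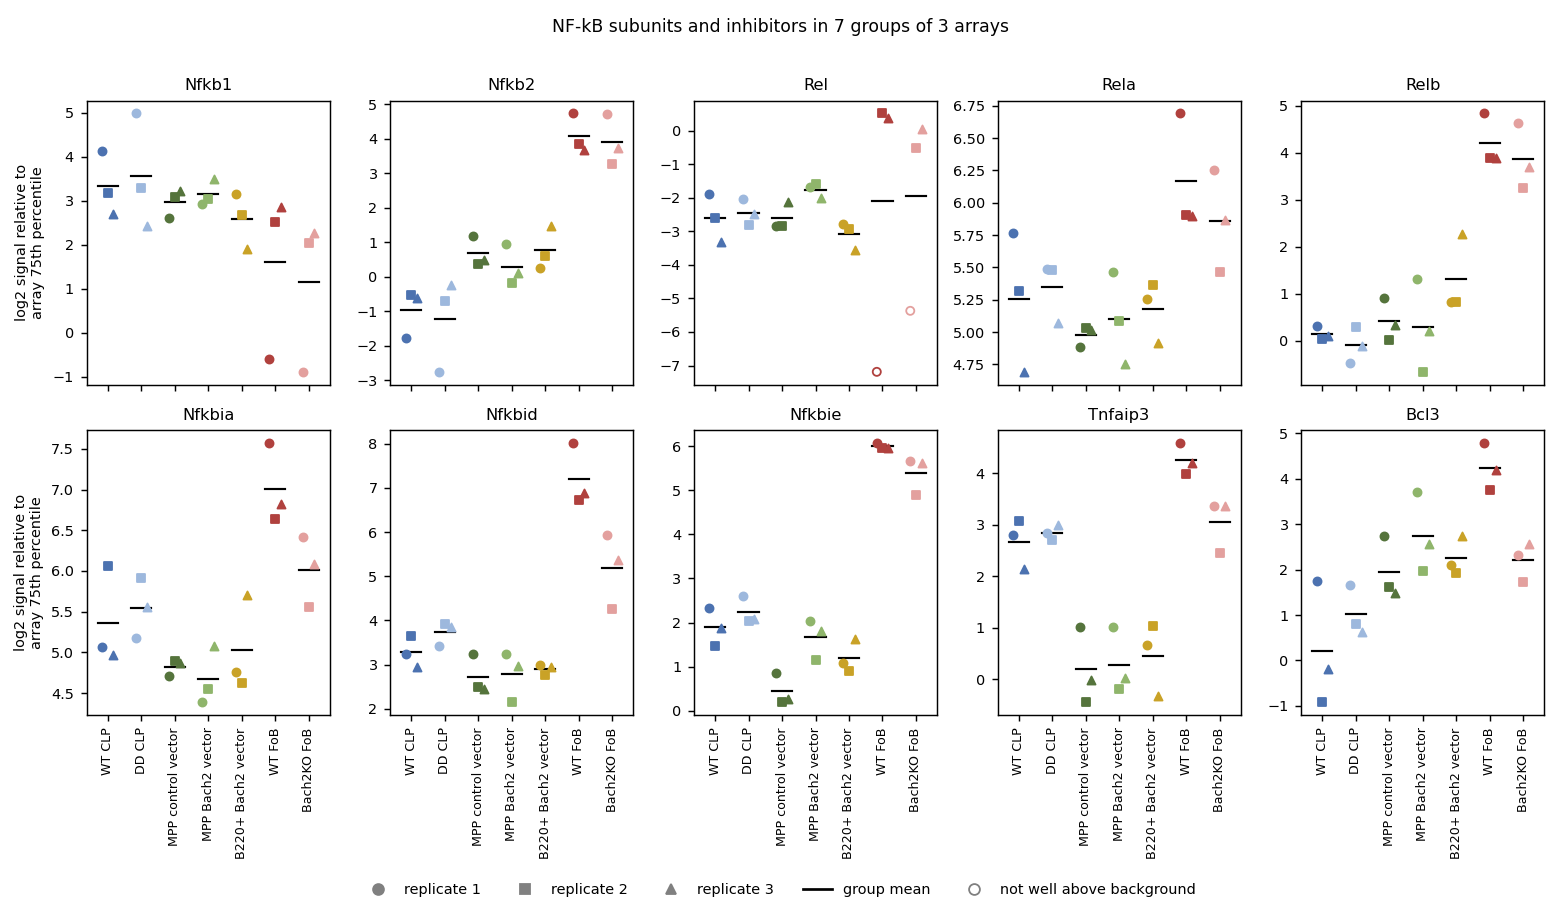
Log2 signal of the 10 members relative to the 75th percentile of each array (y axis) in the 7 groups (x axis); each point is 1 array, its shape gives the replicate number, bars are group means and open points are not well above background. The axis range differs between panels. WT follicular B cells have the highest mean for 8 of 10 genes, and Rel and Nfkb1 have 1 low array in each follicular group. The share of all genes with their highest mean in WT follicular B cells is not given here.

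Among the subunits, Nfkb2 spanned 5.31 log2 units between its lowest and highest group means. It was -1.76, -0.53 and -0.63 in WT CLPs, -2.76, -0.70 and -0.24 in DD CLPs, 1.17, 0.38 and 0.49 in control-vector MPPs, 0.96, -0.18 and 0.09 in Bach2-vector MPPs, 0.26, 0.59 and 1.47 in B220+ cells, 4.73, 3.85 and 3.66 in WT follicular B cells and 4.72, 3.27 and 3.73 in Bach2KO follicular B cells. Its arrays thus formed 3 levels that did not overlap: the CLPs, the MPP-derived cells and the follicular B cells. Within each level the neighbouring groups overlapped.

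Relb, the partner of the Nfkb2 product in the alternative branch, had a mean of 4.21 ± 0.55 (SD, n = 3) in WT and 3.86 ± 0.70 in Bach2KO follicular B cells. The next group was the B220+ cells at 1.30 ± 0.83, and the other 4 groups had means between -0.10 and 0.42. The follicular arrays did not overlap with the rest, and each neighbouring pair among the other 5 groups overlapped. Rela, the main transactivating subunit, had the smallest span of the subunits, 1.19: group means ran from 4.98 in control-vector MPPs to 6.17 in WT follicular B cells, and every neighbouring pair in the order overlapped.

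Among the inhibitors, Nfkbie spanned 5.55 log2 units. It was lowest in control-vector MPPs at 0.86, 0.20 and 0.27, followed by B220+ cells at 1.08, 0.91 and 1.62 and Bach2-vector MPPs at 2.04, 1.15 and 1.81. It was 2.33, 1.46 and 1.87 in WT CLPs, 2.59, 2.03 and 2.07 in DD CLPs, 5.65, 4.89 and 5.63 in Bach2KO and 6.06, 5.96 and 5.96 in WT follicular B cells. Control-vector MPPs did not overlap with the B220+ cells next to them, and the CLP groups, Bach2-vector MPPs and B220+ cells overlapped in turn. The 3 WT follicular arrays lay within an SD of 0.06.

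Tnfaip3, which removes activating ubiquitin chains from pathway proteins, separated CLPs from MPP-derived cells. Its mean was 2.67 ± 0.48 in WT and 2.85 ± 0.14 in DD CLPs, and 0.19 ± 0.75, 0.28 ± 0.65 and 0.45 ± 0.70 in control-vector MPPs, Bach2-vector MPPs and B220+ cells. Bach2KO follicular B cells, at 3.06 ± 0.53, overlapped with DD CLPs, and WT follicular B cells stood above both at 4.26 ± 0.30. Bcl3 had another order: WT follicular B cells at 4.24 ± 0.51 were followed by Bach2-vector MPPs (2.75 ± 0.88), B220+ cells (2.26 ± 0.43), Bach2KO follicular B cells (2.21 ± 0.43), control-vector MPPs (1.95 ± 0.69), DD CLPs (1.03 ± 0.56) and WT CLPs (0.22 ± 1.37). All neighbours below the WT follicular B cells overlapped.

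The comparison of Bach2KO with WT follicular B cells asked what the loss of Bach2 does to B cells with an engaged receptor. Bcl3 fell by 2.04 ± 0.38 on the log2 scale (SE; 4.11-fold; 95% interval -2.90 to -1.18; adjusted p = 0.0239, limma with Benjamini-Hochberg adjustment over 13068 genes), the only one of 10 members to pass. Of all genes tested, 0.513% passed as lower. The mean was lower in Bach2KO cells for 9 of 10 members, all but Rel, where 61.9% of all genes had a lower mean; Rel turned to -0.46 with another background correction and Nfkb2 to 0.02 with quantile normalization. The median log2 difference was -0.53 over the members and -0.16 over all genes.

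Bcl3 was 4.78, 3.76 and 4.20 in the 3 WT arrays and 2.32, 1.73 and 2.56 in the 3 Bach2KO arrays. Nfkbid, the other nuclear member of the inhibitor family, was 8.01, 6.72 and 6.88 in WT and 5.93, 4.26 and 5.37 in Bach2KO. For both genes all 3 Bach2KO arrays were below all 3 WT arrays. Nfkbid differed by -2.01 ± 0.51 (4.04-fold) with an adjusted p of 0.0921, so it did not pass without a block.

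Tnfaip3 was 4.59, 3.99 and 4.20 in WT and 3.37, 2.45 and 3.36 in Bach2KO, a difference of -1.20 ± 0.36 (adjusted p = 0.176). Nfkbia, the main cytoplasmic inhibitor, was 7.57, 6.64 and 6.82 in WT and 6.42, 5.55 and 6.08 in Bach2KO, a difference of -0.99 ± 0.38 (adjusted p = 0.340). Nfkbie differed by -0.60 ± 0.32 (adjusted p = 0.584). The arrays of these 3 genes and of Bcl3 and Nfkbid did not overlap between genotypes, 5 of 10 members, where 10.6% of all genes were so separated as lower. All 5 belong to the inhibitors and regulators. None of the 5 subunit genes was separated, but for Nfkb1 and Rel the overlap came with the low replicate 1 of both genotypes. On replicates 2 and 3, Bach2KO minus WT was -0.49 and -0.59 for Nfkb1 and -1.03 and -0.35 for Rel. For Rel it was 1.82 on replicate 1.

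The subunits differed less. Relb had a difference of -0.34 ± 0.44, Rela of -0.31 ± 0.36, Nfkb2 of -0.18 ± 0.46, Nfkb1 of -0.46 ± 1.05 and Rel of 0.15 ± 2.09, with adjusted p between 0.781 and 0.985 and genotypes that overlapped. The wide errors of Nfkb1 and Rel came with replicate 1 of both genotypes, described further on. Within pairs the difference of Rela was -0.44 to -0.04.

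Arrays of the same number in the 2 genotypes were compared as pairs, since their deviations from the group means correlated at 0.859, 0.715 and 0.534. Arrays of unlike number reached up to 0.499, close to the third pair. The differences within pairs ran from -2.46 to -1.63 for Bcl3, from -2.46 to -1.51 for Nfkbid, from -1.55 to -0.84 for Tnfaip3, from -1.15 to -0.74 for Nfkbia and from -1.06 to -0.33 for Nfkbie. In 3 of 3 pairs 8 of 10 members were lower, and Nfkb2 and Rel were lower in 2 of 3. The share of all genes lower in 3 of 3 pairs is not given here, and 61.9% of all genes had a lower mean. This count is therefore no result about the members. With the replicate number as a block, 4 members passed as lower: Bcl3 (adjusted p = 6.3e-06), Nfkbid (9.6e-06), Tnfaip3 (8.2e-04) and Nfkbia (0.00266), in a fit that called 13.2% of all genes as lower. With the slide as a block the same 4 passed, at 0.00256, 0.00325, 0.0245 and 0.0259, and 3.93% of all genes were called as lower. Nfkbie had adjusted p = 0.0543 with the replicate block and 0.147 with the slide block.

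The call of Bcl3 in the fit without a block was lost with another background correction (adjusted p = 0.0767), without the filter on dim probes (0.0636) and without Bach2KO replicate 2 (0.0698), Bach2KO replicate 3 (0.0870), WT replicate 1 (0.0605) or WT replicate 3 (0.0859). Its difference stayed between -2.28 and -1.77 in all 17 settings. Without Bach2KO replicate 1, 2 members passed, Bcl3 and Nfkbid.

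**Figure D2:**
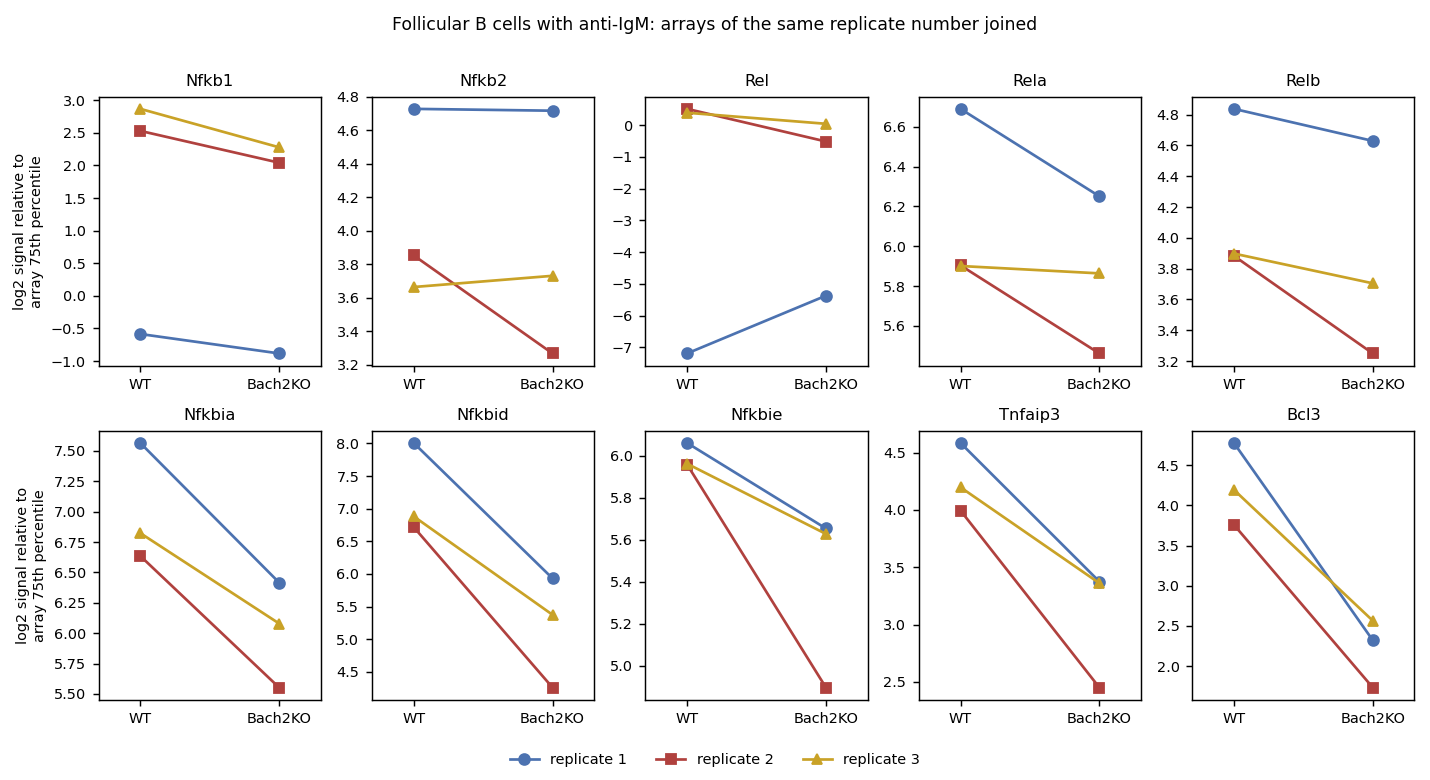
Log2 signal of the 10 members relative to the array 75th percentile (y axis) in WT and Bach2KO follicular B cells after 24 h with anti-IgM (x axis); lines join arrays of the same replicate number, and axis ranges differ between panels. All 3 lines fall for 8 of 10 genes, with the steepest falls for Bcl3 (-2.46 to -1.63) and Nfkbid (-2.46 to -1.51), while Nfkb2 and Rel have 1 rising line each. Of all genes, 61.9% had a lower mean in Bach2KO cells.

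The promoter windows of the 4 genes lower in the paired fits, and of Nfkb2, which rose most between CLPs and follicular B cells, are shown because the members are known both to make up NF-kB and to be its targets. Windows came from RefSeq on build GRCm38.p6, another build than the one the array files name, and run 250 bases before and, as printed, 30 bases after an annotated start. A table of windows held 13 for 8 of the 10 members, with none for Nfkb1 and Relb. Capitals mark matches, on either strand, to the 10-base kB consensus and to TGANTCA. The latter is a loose form, with any middle base, of the core motif that Bach and AP-1 factors are known to share. Overlapping matches run together.
Bcl3 (chr7:19822726-19823005, minus strand): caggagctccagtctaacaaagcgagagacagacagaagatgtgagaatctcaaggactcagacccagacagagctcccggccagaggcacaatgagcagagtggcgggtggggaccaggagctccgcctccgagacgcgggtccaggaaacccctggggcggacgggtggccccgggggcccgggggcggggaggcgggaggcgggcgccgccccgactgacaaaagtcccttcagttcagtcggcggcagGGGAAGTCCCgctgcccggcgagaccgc
Nfkbid (chr7:30422156-30422435, plus strand): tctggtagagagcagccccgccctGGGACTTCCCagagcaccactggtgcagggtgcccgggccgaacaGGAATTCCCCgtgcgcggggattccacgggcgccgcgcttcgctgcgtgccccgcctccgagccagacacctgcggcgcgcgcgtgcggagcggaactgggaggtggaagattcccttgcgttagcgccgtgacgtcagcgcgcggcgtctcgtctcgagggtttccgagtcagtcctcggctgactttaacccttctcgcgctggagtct
Tnfaip3 (chr10:19015381-19015660, minus strand): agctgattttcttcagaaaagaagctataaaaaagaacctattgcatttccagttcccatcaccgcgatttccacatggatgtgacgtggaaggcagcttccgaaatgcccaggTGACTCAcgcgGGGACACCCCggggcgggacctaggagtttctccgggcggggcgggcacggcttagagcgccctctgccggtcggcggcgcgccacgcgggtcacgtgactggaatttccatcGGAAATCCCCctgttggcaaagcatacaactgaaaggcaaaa
Nfkbia (chr12:55492618-55492897, minus strand): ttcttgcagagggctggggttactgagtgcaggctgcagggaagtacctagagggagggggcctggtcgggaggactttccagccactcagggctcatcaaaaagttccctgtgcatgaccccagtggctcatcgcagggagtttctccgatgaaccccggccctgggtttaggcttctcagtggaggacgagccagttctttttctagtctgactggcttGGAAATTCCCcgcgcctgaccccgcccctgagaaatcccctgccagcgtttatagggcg
Nfkb2 (chr19:46304487-46304766, plus strand): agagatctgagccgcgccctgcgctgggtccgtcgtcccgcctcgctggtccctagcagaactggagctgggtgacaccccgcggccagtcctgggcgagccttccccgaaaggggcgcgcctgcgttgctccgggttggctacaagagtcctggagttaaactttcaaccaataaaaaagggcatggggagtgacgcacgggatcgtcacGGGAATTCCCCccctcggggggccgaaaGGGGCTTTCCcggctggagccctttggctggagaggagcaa

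A kB consensus match lay in 9 of the 13 full windows of 300 bases, against 4.51% of 32851 promoter windows in the table; of the 8 members, Rela alone had none. The windows of a gene can overlap, and 1 match of Nfkb2 was counted in 2 of its windows, neither of them shown. Nfkb2 had 3 matches in the window shown, of which 2 overlap. Nfkbid and Tnfaip3 had 2 in the windows shown, and Nfkbia and Bcl3 had 1, that of Bcl3 just after its start. The other windows of Nfkbid and Tnfaip3, at other annotated starts and not shown, had 0. TGANTCA matched in 3 of 13 windows, 1 each of Nfkb2 (in a window not shown), Nfkbie and Tnfaip3, against 7.81% of all windows. The matched strings were TGAATCA in Nfkb2, TGAGTCA in Nfkbie and TGACTCA in Tnfaip3. A match is a string of letters and not a measured site, and these arrays measured no binding.

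In Bach2KO follicular B cells 2.71% of all genes passed, 2.2% as higher and 0.513% as lower, the shares against which the other pathway lists are to be read. Of 31 kinases, adaptors and other regulators, 0 passed in this limma fit, where 11% of all genes had an unadjusted p under 0.05, and 22 had a lower mean. Of 20 receptors and receptor adaptors, Tnfrsf1a, a receptor for tumour necrosis factor, rose at least 1.70-fold from WT arrays of which 0 of 3 were well above background (adjusted p = 0.0247). Of 38 known NF-kB target genes, 29 were tested, of which 7 rose and 1 fell.

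The chemokine genes Ccl5 (3.36 ± 0.33, adjusted p = 9.2e-04) and Ccl3 (3.09 ± 0.43, adjusted p = 0.00606) and the stress-response gene Ier3 (2.69 ± 0.29, adjusted p = 0.00167) rose on the log2 scale. Cxcl10, another chemokine gene, was not well above background in WT and was at least 6.59-fold higher in Bach2KO (adjusted p = 0.00878). The cytokine and chemokine genes Il6, Ccl4 and Lta rose as well, and Ccr7, a homing receptor, fell by 1.64 (adjusted p = 0.0484). The median difference over the 29 targets was -0.13, near that of all genes (-0.16).

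Marker lists of cell types moved with the genotype: for 7 of 9 lists the mean levels of the WT and Bach2KO arrays did not overlap. The mean level of a 10-gene T-cell list was -1.70 to -1.53 in WT and -0.82 to -0.23 in Bach2KO arrays; 1 of 8 tested genes passed as higher, and Themis was not well above background in either. A 12-gene monocyte and macrophage list went from -4.32 to -3.47 in WT to -2.98 to -1.77 in Bach2KO, with 1 of 7 tested genes higher and markers such as Fcgr1, Ccr2, F13a1 and C5ar1 not well above background in either group. A 10-gene plasma-cell list went from -0.72 to -0.63 to 0.60 to 0.80, with 3 of 8 higher. The dendritic-cell list of 10 went from -0.33 to -0.12 to 0.37 to 1.11, with 0 of 7 passed by limma and Xcr1 and Clec9a not well above background in either. An erythroid list of 10 went from -3.35 to -2.67 to -2.21 to -1.86, with 2 of 7 higher. The 16-gene B-lineage list went from 1.11 to 1.45 to 0.85 to 0.99, with 1 of 13 lower. The NK list of 10 was -3.04 to -2.90 in WT and -2.74 to -1.68 in Bach2KO, with 1 of 6 higher and Ncr1 not well above background in either. The granulocyte list of 12 overlapped, at -4.81 to -2.23 and -2.97 to -1.19, with 0 of 7 passed and a median difference of 3.02, and the progenitor list overlapped too. The part of these shifts in the member values was not tested. In such bulk samples, fewer cells of a type and less RNA per cell cannot be told apart.

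In CLPs, which lacked both Bach1 and Bach2 in the DD group, no member passed. By limma 0 of 10 members and 1 of 16456 genes (0.00608%) had an adjusted p under 0.05, while 3.76% of genes had an unadjusted p under 0.05. In DD cells 8 members had a higher and 2 a lower mean, where 53.7% of all genes had a higher mean. The median log2 difference was 0.18 over the members and 0.04 over all genes. For 0 of 10 members did the arrays separate the genotypes, where 7.91% of all genes were separated in either direction.

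Bcl3 had the largest difference, 0.81 ± 0.67, with 1.74, -0.91 and -0.18 in WT and 1.67, 0.79 and 0.62 in DD CLPs. Its 95% interval, -0.72 to 2.33, covers both no change and a rise of over 2 log2 units. Nfkbid was 3.24, 3.64 and 2.95 in WT and 3.42, 3.91 and 3.85 in DD, and Nfkbie was higher in DD by 0.20 to 0.57. Each was higher in 3 of 3 pairs, which here also share a slide. The share of all genes higher in 3 of 3 pairs is not given here, so this count is no result about the members. The 2 genes with the largest falls in Bach2KO follicular B cells thus had higher means in DD CLPs.

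The difference between these 2 genotype effects was tested after the values were seen, in a limma fit of all 21 arrays. The effect in follicular B cells minus that in CLPs was -2.47 ± 0.61 for Nfkbid (adjusted p = 0.0840), -2.85 ± 0.82 for Bcl3 (0.172), -1.37 ± 0.63 for Tnfaip3 (0.501) and -1.17 ± 0.54 for Nfkbia (0.508). None of the 10 members passed, and 0.571% of all genes did. With the replicate pair as a block, over the 12 CLP and follicular arrays, Nfkbid passed (-2.47 ± 0.37, adjusted p = 0.0359) where 0.978% of all genes did, and Bcl3 had an adjusted p of 0.0518. Nfkbid no longer passed without any one of the 3 follicular pairs (0.114 to 0.140) or without CLP pair 2 (0.0929) or 3 (0.0766), whereas without CLP pair 1 both genes passed (Nfkbid 0.0374, Bcl3 0.0290). The CLPs lacked Bach1 as well, were not stimulated in culture and were amplified otherwise, and these factors cannot be told apart from the cell type.

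The MPP experiment asked what added Bach2 does to progenitors in culture. No member passed, where 1.80% of 16988 genes did and 8.66% had an unadjusted p under 0.05 by limma. Nfkbie, whose product is known to hold Rel and Rela dimers, was the nearest: it was 0.86, 0.20 and 0.27 with the control vector and 2.04, 1.15 and 1.81 with the Bach2 vector, higher by 1.22 ± 0.33 (adjusted p = 0.148). The groups did not overlap, and the difference was 0.95 to 1.54 in 3 of 3 pairs. With the slide as a block its adjusted p was 0.0680, and within the slides the difference was 1.18 and 1.24.

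Rel, the lymphoid-rich subunit, was -2.85, -2.84 and -2.12 with the control vector and -1.68, -1.58 and -2.01 with the Bach2 vector, higher by 0.85 ± 0.31 (adjusted p = 0.376). These 2 members were separated as higher, 2 of 10, where 7.66% of all genes were. Bcl3 had a difference of 0.80 ± 0.50 and, like Rel, was higher in 3 of 3 pairs, but its groups overlapped. The other 7 members had differences between -0.39 and 0.18. Among them Nfkb2 was lower (-0.561 to -0.215) and Tnfaip3 higher (0.002 to 0.245) in 3 of 3 pairs. The share of all genes with 3 of 3 pairs in a single direction is not given here, so these pair counts are no result about the members.

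Pathway genes outside the members did pass. Of 20 receptors and adaptors 2 rose with the Bach2 vector, where 1.07% of all genes did, among them Tnfrsf13c (3.17 ± 0.39, adjusted p = 0.00598), the receptor for BAFF. Of 34 tested targets 3 rose: Ccr7 (3.58 ± 0.40), Irf4 (2.90 ± 0.44), a transcription factor of activated B cells, and Cd83 (6.77 ± 1.04), an activation marker that was well above background on 1 of 3 control-vector arrays. Of 31 kinases and regulators 0 passed. The 12-gene monocyte and macrophage list mean was -0.03 to 1.02 with the control vector and -1.35 to -0.20 with the Bach2 vector, with 3 of 12 genes lower and C5ar1 not well above background with the Bach2 vector. The granulocyte list was 1.72 to 2.87 and 0.33 to 1.61, with 1 of 12 lower. The dendritic-cell list was -0.15 to 0.31 and 0.41 to 0.67, with 0 of 9 passed by limma and Xcr1 not well above background in either. The NK list was -3.63 to -3.20 and -2.31 to -2.13, with 1 of 9 higher and Ncr1 and Klrk1 not well above background in either, and the B-lineage list -4.33 to -3.63 and -3.46 to -3.27, with 1 of 14 higher and Ms4a1 and Ebf1 not well above background in either. The part of these shifts in the member values was not tested.

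In the B220+ cells, 0 of 10 members passed against control-vector MPPs, where 12.1% of all genes did and 29.9% had an unadjusted p under 0.05 by limma. Nfkbie was separated as higher by 0.76 ± 0.33 (adjusted p = 0.162), 1 of 10 members against 11% of all genes; with the slide as a block the difference was 0.36 (adjusted p = 0.552). Relb was higher by 0.88 ± 0.56 (adjusted p = 0.310), with B220+ replicate 3 at 2.26 and the other two at 0.82 and 0.83.

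Against Bach2-vector MPPs, Rel fell by 1.34 ± 0.31 (2.52-fold; adjusted p = 0.0391), the only one of 10 members to pass, where 4.16% of all genes passed as lower. It was -2.80, -2.92 and -3.57 in the B220+ cells and -1.68, -1.58 and -2.01 in the Bach2-vector MPPs, and the groups did not overlap, where 21.7% of all genes were so separated as lower. All 3 B220+ arrays lay on 1 slide with only 1 Bach2-vector array: the difference on that slide was -1.41, and with the slide as a block it was -1.25 ± 0.37 (adjusted p = 0.120). Without any one of the 6 arrays Rel did not pass. The B220+ cells also had spent longer in culture, and their granulocyte list mean, 2.86 to 3.20, was above that of Bach2-vector MPPs, 0.33 to 1.61, with 3 of 12 genes higher and 2 lower and all 12 well above background in the B220+ cells; its part in the result was not tested.

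Of 20 receptor and adaptor genes 5 fell and 0 rose in this comparison. They included Tnfrsf13c (-3.32 ± 0.39), Irak4 (-1.81 ± 0.32) and Myd88 (-1.14 ± 0.25), kinase and adaptor of Toll-like receptor signalling. Of 34 tested targets 2 rose, where 2.01% of all genes did, Tnf (1.94 ± 0.28) and Vcam1 (4.15 ± 0.93), and 2 fell, Csf2, which was well above background on 0 of 3 B220+ arrays, and Cxcl10 (-4.65 ± 0.98).

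**Figure D3:**
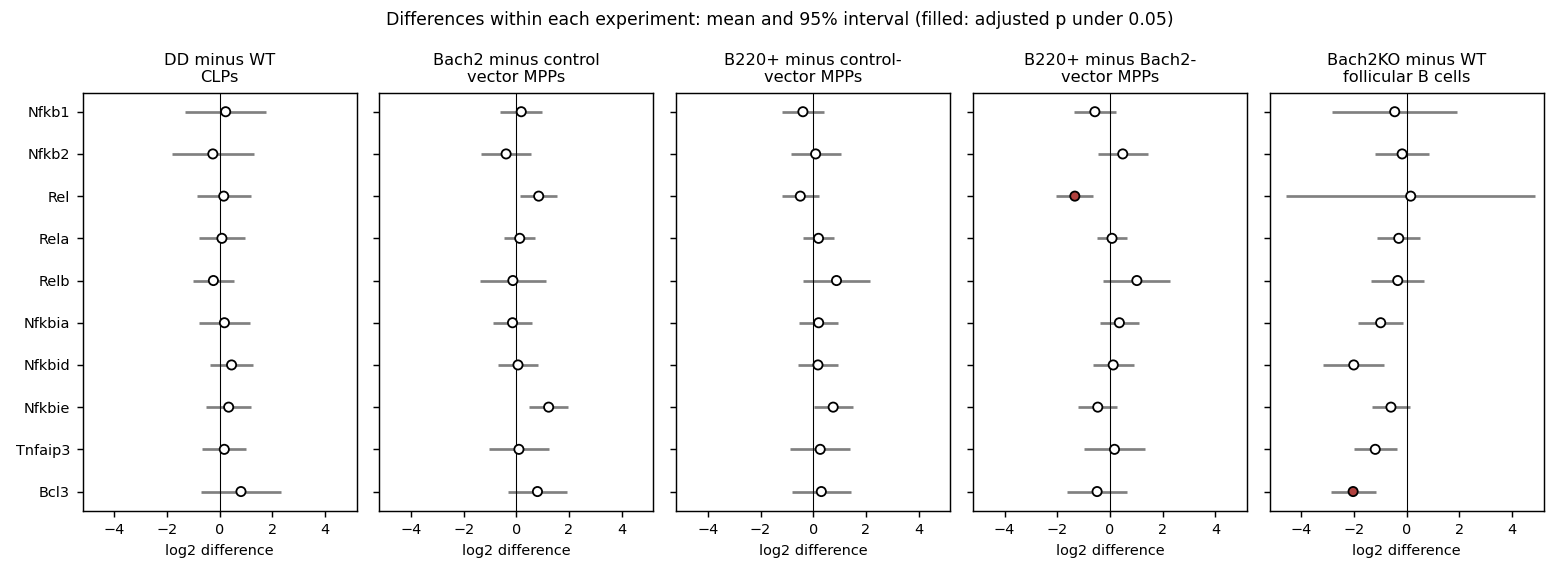
Log2 difference between 2 groups of 3 arrays (x axis) for the 10 members (y axis) in the 5 comparisons within an experiment; points are differences, lines their 95% intervals, and filled points have an adjusted p under 0.05. Only Rel in B220+ against Bach2-vector cells (-1.34) and Bcl3 in Bach2KO against WT follicular B cells (-2.04) are filled.

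Across experiments, the members differed more. In WT follicular B cells 8 of 10 members were higher than in WT CLPs by limma, where 21.2% of 17697 genes were, and 8 of 10 did not overlap, against 27.1% of all genes. The subunits Nfkb2 (5.06 ± 0.58, 33.3-fold, adjusted p = 9.0e-07) and Relb (4.06 ± 0.50, 16.7-fold, adjusted p = 2.0e-06) rose. So did the inhibitor Nfkbie (4.11 ± 0.34, adjusted p = 1.1e-08) and the nuclear members of the inhibitor family, Bcl3 (4.03 ± 0.58) and Nfkbid (3.93 ± 0.43). Nfkbia (1.64 ± 0.38, adjusted p = 0.00166), Tnfaip3 (1.59 ± 0.44, adjusted p = 0.00653) and Rela (0.91 ± 0.33, adjusted p = 0.0322) rose less. Cell type, receptor stimulation, amplification method and slide cannot be told apart here.

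The call of Rela was lost with quantile normalization (0.32, adjusted p = 0.430), with another background correction (0.56, adjusted p = 0.148) and without WT follicular replicate 1 (adjusted p = 0.150), WT CLP replicate 2 (0.0594) or WT CLP replicate 3 (0.172). That of Nfkbia was lost with quantile normalization (0.77, adjusted p = 0.0660). The other 6 calls held in every setting run. Without WT follicular replicate 3 the brighter Nfkb1 probe passed as lower (-2.37, adjusted p = 0.0488), as it did with all arrays and another background correction (-1.84, adjusted p = 0.0205).

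The pathway lists moved in both directions: of 31 kinases and regulators 17 rose and 1 fell, of 20 receptors and adaptors 11 rose and 5 fell, and of 35 tested targets 15 rose and 7 fell, where 21.2% of all genes rose and 24.4% fell. The signalling adaptors Traf1 (4.72 ± 0.48) and Traf2 (2.44 ± 0.32), the inhibitor Nfkbib (2.89 ± 0.45) and the targets Irf4 (7.11 ± 0.42), Cd83 (10.74 ± 0.82) and Bcl2l1 (4.33 ± 0.34), a survival gene, were among them. Tnfrsf1a and Ltbr, the lymphotoxin receptor, were well above background on 0 of 3 WT follicular arrays and were at least 199.8-fold and 313.5-fold lower there.

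**Figure D4:**
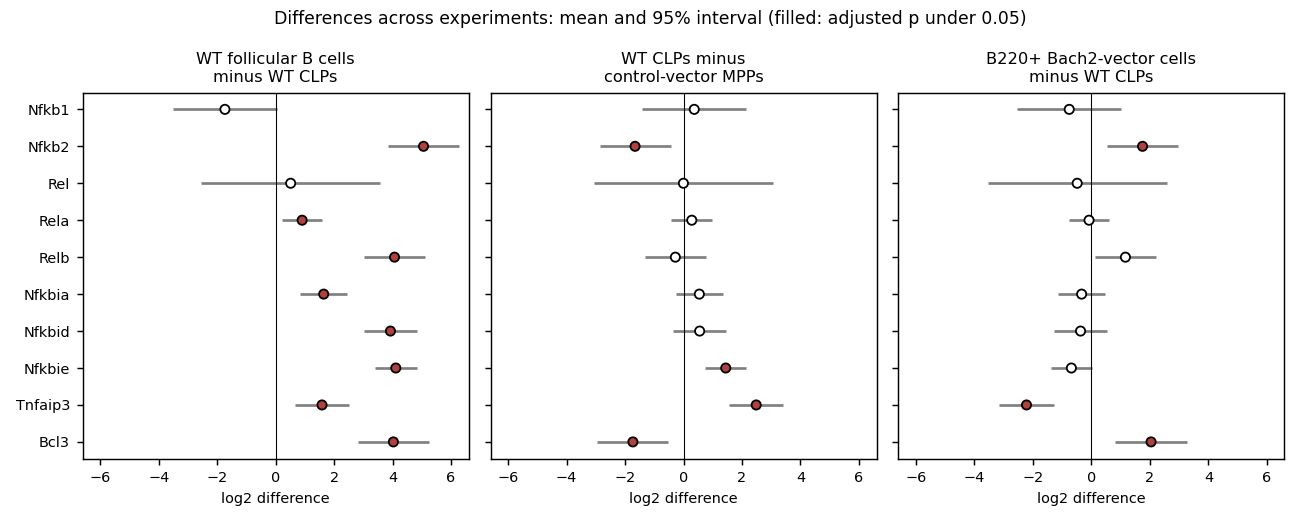
Log2 difference (x axis) for the 10 members (y axis) in the 3 comparisons across experiments, from 1 fit of all 21 arrays; points are differences, lines their 95% intervals, and filled points have an adjusted p under 0.05. For 8 of 10 genes the points are filled and to the right of 0 for follicular B cells against CLPs, and Tnfaip3 (2.49) and Nfkbie (1.44) lead the difference of CLPs from control-vector MPPs.

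WT CLPs differed from control-vector MPPs in both directions. Cell type, culture, vector and slide cannot be told apart in this comparison. Tnfaip3 was higher by 2.49 ± 0.44 (adjusted p = 3.6e-04) and Nfkbie by 1.44 ± 0.34 (adjusted p = 0.00397), and Bcl3 was lower by 1.73 ± 0.58 (difference -1.73, adjusted p = 0.0370) and Nfkb2 by 1.66 ± 0.58 (difference -1.66, adjusted p = 0.0453), 2 members higher where 10.2% of all genes were, and 2 lower where 13.1% were. Both rises passed in every setting run. Leaving out any one of these 6 arrays ended the call of Nfkb2 (adjusted p 0.0510 to 0.196), and that of Bcl3 was lost without WT CLP replicate 2 (0.185) or 3 (0.117) and without control-vector replicate 1 (0.147) or 2 (0.0584). With quantile normalization Nfkbia passed as higher too (1.02, adjusted p = 0.0321). Among the regulators, Nfkbiz (2.40 ± 0.35), a further nuclear member of the inhibitor family, and Traf5 (2.47 ± 0.36) were higher in CLPs.

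The B220+ cells, which had been brought to a B-lineage culture, were also compared with WT CLPs. Here too, cell type, culture, vector and slide cannot be told apart. Tnfaip3 was lower than in WT CLPs by 2.22 ± 0.44 (difference -2.22, adjusted p = 0.00153), and Bcl3 (2.04 ± 0.58, adjusted p = 0.0216) and Nfkb2 (1.75 ± 0.58, adjusted p = 0.0493) were higher, 2 members higher where 6.06% of all genes were, and 1 lower where 8.64% were. The difference of Tnfaip3 passed in every setting run. Nfkb2 lost its call without any one of these 6 arrays (adjusted p 0.0531 to 0.201), and Bcl3 without B220+ replicate 3 (0.0853) or WT CLP replicate 2 (0.128) or 3 (0.0791). The levels of Tnfaip3 in the B220+ cells, 0.67, 1.03 and -0.33, overlapped with those in control-vector MPPs, 1.02, -0.44 and -0.01.

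Rel and Nfkb1 need the single arrays to be read. In follicular replicate 1 of both genotypes, Rel was at -7.19 and -5.37 and not well above background, while replicates 2 and 3 were at 0.51 and 0.39 in WT and at -0.51 and 0.04 in Bach2KO. Without both arrays of replicate 1, which share a slide, Rel was higher in WT follicular B cells than in WT CLPs by 3.06 ± 0.41 (adjusted p = 1.7e-05), against 0.51 ± 1.46 (adjusted p = 0.802) with them. With all arrays and another background correction Rel also passed as higher (1.94, adjusted p = 0.00470). Nfkb1 was at -0.59 and -0.88 in replicate 1 and between 2.04 and 2.87 on the other 4 arrays. Of 13005 genes, 153 (1.18%) lay in the same way more than 2 log2 units below both other replicates in both genotypes, and 3 lay above. The other 8 members were higher in replicate 1 than in the mean of the others, by 0.25 to 1.16. Among all genes, Nfkbie (0.25) lay at percentile 39.8, Tnfaip3 (0.48) at 54.1 and Bcl3 (0.49) at 54.7. Rela lay at 70.8, Nfkbia at 73.4, Relb at 93.7 and Nfkb2 at 95.1. The highest was Nfkbid at 96.9.

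The 2 probes of Nfkb1, which carry the same RefSeq accession, went against each other. On the dimmer probe Nfkb1 was 4.20, 3.13 and 3.38 in WT follicular B cells and -1.22, 1.37 and 1.45 in WT CLPs, a difference of 3.04, where the brighter probe gave -1.74 ± 0.85 (adjusted p = 0.106). Within groups the 2 probes correlated at -0.417 over 21 arrays and over the 7 group means at -0.933. The direction of Nfkb1 between cell types is therefore not settled by these arrays; the mean of both probes gave 0.65 ± 0.45. In Bach2KO against WT follicular B cells both probes were lower, by 0.46 (difference -0.46) and 0.38 (difference -0.38). The 2 Relb probes correlated at 0.925 within groups and gave 4.06 and 3.91 for follicular B cells against CLPs.

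**Figure D5:**
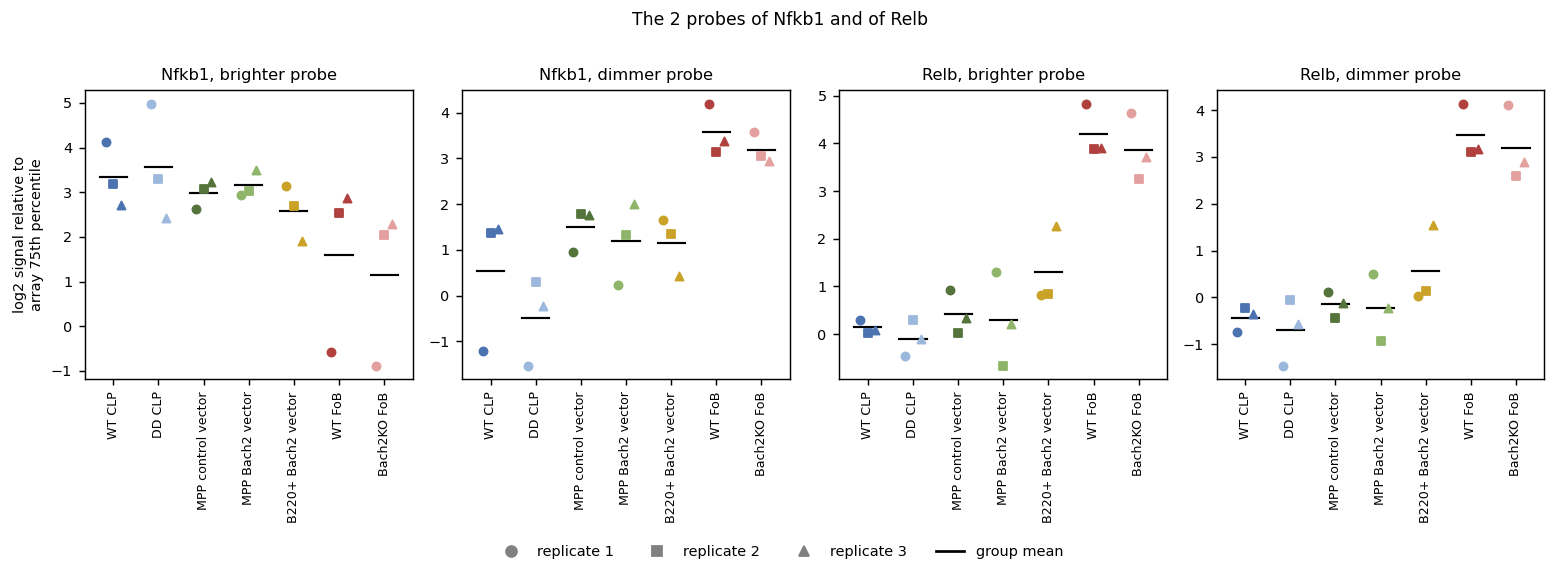
Log2 signal relative to the array 75th percentile (y axis) of the 2 probes of Nfkb1 and of Relb in the 7 groups (x axis); points are arrays, shapes give the replicate number and bars are group means. The brighter Nfkb1 probe is lowest and the dimmer one highest in follicular B cells, whereas the 2 Relb probes have the same order at the top.

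Members also varied together between replicates. Over deviations of the 21 arrays from their group means, Nfkb1 (brighter probe) and Rel correlated at 0.882, Nfkbie and Bcl3 at 0.874 and Nfkb1 and Nfkb2 at -0.813; without the 6 follicular arrays these were 0.669, 0.912 and -0.928. Array 1 of each CLP group, with the highest Nfkb1 on the brighter probe (4.13 and 4.99), had the lowest Nfkb2 (-1.76 and -2.76). On the dimmer probe, array 1 of WT CLPs was instead the lowest for Nfkb1 as well. The 2 probes correlated at -0.417 within groups. The opposition of Nfkb1 and Nfkb2 was thus seen on the brighter probe, and a correlation of the dimmer probe with Nfkb2 is not given here. These are descriptions of arrays that share slides and RNA amplification, with no test.

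Over the 7 group means, Nfkb2 and Relb correlated at 0.971, Rela and Nfkbie at 0.985 and Nfkbia and Nfkbid at 0.981. Among 12617 genes well above background on at least 18 of 21 arrays, those most like Nfkb2 were Habp4 (Pearson r 0.9985), Traf2 (0.9983) and Suv39h1 (0.9979), and those most like Relb were Naa80, Fbxo4 and Tmtc4 (0.9963 to 0.9976). For Nfkbie they were Fbxw7, Trex1 and Wdr34 (0.9911 to 0.9977), for Nfkbid Zfp747, Wdr83os and Arhgef6 (0.9893 to 0.9916), and for Nfkbia Arhgef6, Cib2 and Nfkbid itself (0.9814 to 0.9842). For Rela they were Sema4c, Dcaf11 and Irs2 (0.9943 to 0.9987), for Tnfaip3 Zfp513, Ezh1 and Lyrm2 (0.9853 to 0.9929) and for Bcl3 Qars and Ndufv1 (0.9803 and 0.9726). For Nfkb1 they were Scaf8, Txlng and Wdr31 (0.9976 to 0.9986), and for Rel Foxi3, Wwc1 and Nrgn (0.9398 to 0.9707). With 7 points set mainly by the 2 follicular groups, these are descriptions only.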

How the data were processed

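Total RNA of 21 mouse samples was measured on single-colour Agilent arrays of 59305 gene spots and 3671 control spots. The authors deposited intensity values made with Feature Extraction, version 10.7.3.1 per the file headers and 9.1 per the submitters' processing notes: background-subtracted, spatially detrended within each array and not scaled between arrays. A deposited value table held the same intensity values, with 0 cells that differed by over 0.1%. The genome build and annotation behind the probe names are those of the array design.

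Here the deposited intensities were taken as log2 and centred on the 75th percentile of each array's gene spots, spots of a probe were averaged, and 26413 of 55681 probes were named through RefSeq accessions (GRCm38.p6 gene table). The brightest probe over 21 arrays stood for a gene. Genes whose probe passed Agilent's background test on 3 or more arrays of a fit were tested with limma 3.58.1 (R 4.3.3), within each experiment or, across experiments, over all 21 arrays, with Benjamini-Hochberg adjustment over all genes tested and a threshold of 0.05. "At least" folds set a group below background at the lowest signal well above background on each array. The limma step was tested on simulated data. Motifs and figures used Python 3.11.15.

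Same-numbered arrays deviated together in the CLP (r 0.434, 0.390 and 0.216), vector (0.649, 0.411 and 0.300) and follicular experiments (0.859, 0.715 and 0.534). The numbers were therefore taken to pair the arrays there, and in CLPs a number is also a slide. Arrays of unlike number reached at most 0.072, 0.312 and 0.499 in these experiments. In the vector experiment this exceeds the third pair, and in the follicular experiment it is close to it, so the pairing is less sure there. The B220+ cells did not meet this limit of 0.1 (-0.06 to 0.12 with control-vector MPPs and 0.08 to 0.12 with Bach2-vector MPPs). No spot of a gene was saturated and no 2 arrays were identical. The number of arrays limits the precision.

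All 10 members are named in every comparison; of the other pathway lists, the up to 4 genes per list and comparison with the smallest p among those that passed could be named. Il6, Ccl4, Lta and Ccr7 in Bach2KO cells are outside that rule and were named after their values were seen. A few genes that the rule would name are not reported here. Members and lists were chosen with earlier results of these data known. Alternatives covered the background correction, normalization, filter, probe choice, variance trend, value table, blocks and leaving out each array.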

Additional observations from a re-analysis of the deposited data

How the results depend on the processing

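The counts of 10 members that passed were recomputed under each alternative. In Bach2KO against WT follicular B cells the count of 1 became 0 with normexp background correction, 0 with no filter on dim probes, 4 with the replicate block, 4 with the slide block, 2 without both arrays of slide 1 and 0 to 2 when each array was left out in turn. In B220+ against Bach2-vector cells the count of 1 became 0 with no filter, 0 with the replicate block, 0 with the slide block and 0 to 0 without each array in turn; the replicate numbers pair no arrays there. Leaving out each array gave 2 to 3 for WT CLPs against control-vector MPPs (4 in all) and 1 to 2 for B220+ cells against WT CLPs (3 in all). For the difference between the genotype effects of follicular B cells and CLPs, the count of 0 became 1 with the replicate block over 12 arrays, and 0 to 2 when each pair was then left out. The replicate block changed no other call within an experiment; none was fitted to the direct comparisons across experiments. The cause of these changes was not tested, other than fewer samples or more genes tested by construction.

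The planned normexp fit on mean signals was not run, since the files hold medians only; medians were used, and this, the fits without slide 1 and the tests of the difference of effects were chosen after seeing the data. For WT follicular B cells against WT CLPs the median of all genes was -0.01, 0.84 with normexp and -0.21 with quantile normalization, and 8, 9 (8 higher, 1 lower) and 6 members passed. Follicular arrays were the dimmest, which limits calls near background, Rel above all.

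Counts over all genes moved by more than 1.5 times in these cases. For Bach2KO against WT follicular B cells 354 genes passed, 123 with normexp, 2976 with the replicate block, 1195 with the slide block and 110 to 371 without each array in turn. For WT follicular B cells against WT CLPs 8067 became 12455 with normexp, and for B220+ cells against WT CLPs 2602 became 1528 when every array had to be above background. Without each array in turn, 305 became 96 to 198 for the Bach2 vector, 2056 became 1028 to 2638 for B220+ against control-vector cells, 1048 became 448 to 1699 for B220+ against Bach2-vector cells, and 1 became 0 to 27 for DD CLPs, where quantile normalization and the replicate block gave 0.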
